A study of Mus musculus with 6 samples.

Results

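The genes described here encode enzymes and helpers that modify, fold, trim and crosslink collagen: the lysyl oxidases Lox, Loxl1, Loxl2 and Loxl3, the lysyl hydroxylases Plod1 and Plod2, the prolyl 4-hydroxylase subunits P4ha1 and P4ha2, the collagen chaperone Serpinh1 and the procollagen C-proteinase enhancer Pcolce. They were taken as all probe sets that the array annotation assigns to exactly 1 of these 10 symbols. Of the 10 genes, 9 were measured, by 17 of the 45037 probe sets tested, out of 18193 genes named in this way. Loxl2 had no probe set of its own, since the 2 probe sets that carry its symbol also carry that of Gm21451, and it is not analysed here.

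Collagen chains are hydroxylated on proline and lysine in the endoplasmic reticulum, where prolyl 4-hydroxylation stabilizes the triple helix and the chaperone HSP47 binds the folded procollagen. After secretion the propeptides are cut off, and lysyl oxidases convert lysine and hydroxylysine residues to the aldehydes from which crosslinks between collagen molecules, and between elastin molecules, form. In injured arteries, smooth muscle cells and fibroblasts are known as main producers of this matrix.

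The arrays compared carotid arteries taken 14 days after wire injury in 2 genotypes. SMC-IRF9-TG mice express HA-tagged mouse IRF9, an interferon regulatory factor, from the SM22α promoter, which is active in smooth muscle, and NTG mice are non-transgenic controls. Per the study's methods, all mice were males aged 10 to 12 weeks on a C57BL/6J background, while the labels give C57BL/6. Several transgenic lines were made, and the paper states that the line with the highest IRF9 level served for its later phenotype work. The labels do not say which line was arrayed. Each genotype had 3 pools of 3 to 5 vessels, and 400 ng of RNA from each pool went onto an array of its own. The animals behind a pool are not named, so p-values measure the spread between pools. Levels are the deposited log2 RMA levels, which cannot be set against each other between probe sets, and a difference is that of SMC-IRF9-TG minus NTG means.

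Several facts of the arrays stand beside each result. Irf9 itself read 5.46, 5.41 and 5.58 with the transgene, against 4.75, 5.43 and 5.36 in the NTG pools (difference 0.30, adjusted p = 0.436 from limma), by a probe set whose place relative to the transgene is not known here, so it does not check the labels. In NTG pool 2 the 3′ control probe set of Actb stood 7.09 above the 5′ one, against 1.56 to 3.04 in the other 5 arrays. Xist, an RNA of female cells, read 2.94 to 3.72 in SMC-IRF9-TG pools, against 9.94, 9.50 and 4.08 in NTG pools 1, 2 and 3, although the methods name male mice. The added poly-A control transcripts averaged 4.66 and 4.22 in SMC-IRF9-TG pools 1 and 2, against 6.95 to 10.64 elsewhere. The smooth muscle actin gene Acta2 read 13.48 to 13.63 in SMC-IRF9-TG pools and 13.28 to 13.60 in NTG pools, and Tagln, the gene of SM22α, read 12.34 to 12.62 in SMC-IRF9-TG pools and 10.05 to 12.40 in NTG pools, lowest in pool 2 (difference 1.11, adjusted p = 0.238). Of the contractile smooth muscle genes, 0 of 10 passed the limma test or the methods' t-test (0 at an unadjusted p under 0.05 by either). Of 15 macrophage markers, 12 were higher in SMC-IRF9-TG arteries, with summed log2 levels of 106.5 to 111.3 in SMC-IRF9-TG and 53.18 to 62.36 in NTG pools. Of 10 fibroblast markers 3 were higher (Lum, Dcn and Pdgfra), with sums of 72.48 to 78.2 in SMC-IRF9-TG and 61.6 to 64.26 in NTG pools, and of 10 endothelial markers Tie1 was higher. Without 1 pool at a time the macrophage count stayed at 12, the fibroblast count was 1 to 3, and Tie1 passed without NTG pool 1 or 2 only, while Vwf was called lower without NTG pool 3. With the arrays of high Xist or of low poly-A controls as a block, the macrophage count was 10 and 5, the fibroblast count 1 and 1, and the endothelial count 0 and 0. RMA levels have no true 0, and the part of these cell markers and array differences in the results below was not tested. More cells of a type and more RNA per cell cannot be told apart in such pools.

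Transcripts of Lox, Loxl3, Serpinh1 and Pcolce were higher in SMC-IRF9-TG arteries, and no member was called lower. Taken by its brightest probe set, each of the 9 genes had a positive difference, from 0.71 for Plod2 to 2.13 for Pcolce, with a median of 1.29 (-0.05 over all genes). Of the 9 genes, Lox, Loxl3 and Pcolce passed the limma test (Benjamini-Hochberg adjustment over all 45037 probe sets, threshold 0.05), and 3.11% of all genes were called higher and 0.511% lower in the same way. Of the 17 probe sets, 6 were called higher (2 of Lox, 1 of Loxl3, 1 of Serpinh1 and 2 of Pcolce), where 2.37% of all probe sets were called higher, and 0 were called lower by limma (0 at an unadjusted p under 0.05), where 0.373% of all probe sets were. In 13 of the 17 probe sets every SMC-IRF9-TG pool lay above every NTG pool, and this held for 12.1% of all probe sets. Brighter probe sets passed more often across the array: of the 8 member probe sets with a mean level of 7 or more, 5 were called higher, against 5.04% of all such probe sets, and 7 did not overlap, against 29.3%. The methods' t-test called no member after adjustment, and blocks for the arrays with high Xist or with low poly-A controls left 1 and 0 of the 9 genes called.

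**Figure D1:**
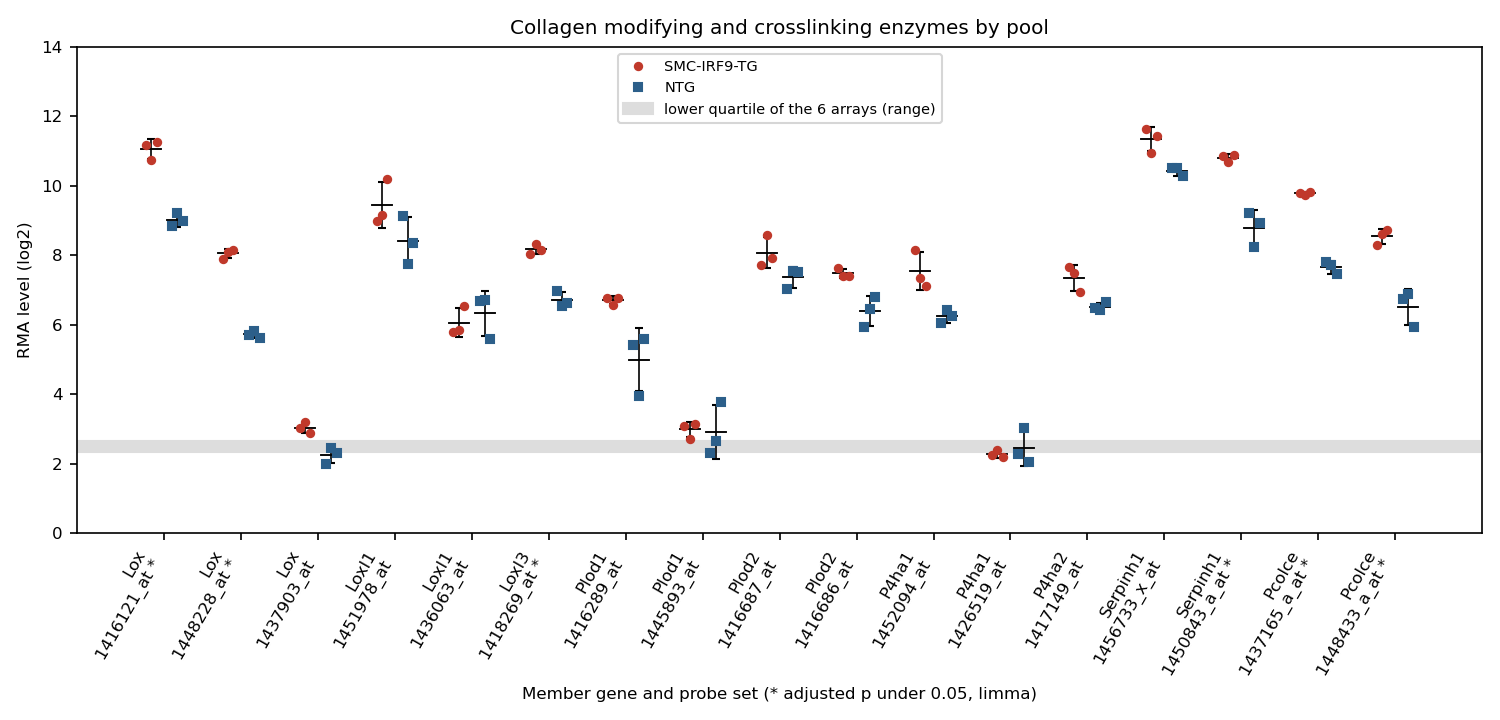
RMA level (y axis, log2) of the 17 probe sets of 9 collagen modifying genes (x axis) in 3 SMC-IRF9-TG pools (circles, left) and 3 NTG pools (squares, right), where each point is a pool, the bars give mean ± SD and the grey band spans the arrays' lower quartiles, 2.33 to 2.66. In 13 probe sets all circles lie above all squares, and the points of 3 dim probe sets reach into or under the band.

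The start sites of 5 of the 10 genes matched a promoter table from RefSeq (GRCm38.p6), with 250 bases before and 50 after the start. Of these, the windows of the 2 genes with a called probe set, Serpinh1 and Pcolce, and of the paired prolyl hydroxylase genes P4ha1 and P4ha2 are shown 5′ to 3′, with capitals on ACGTG or its reverse complement, the core letters that hypoxia-inducible factors bind.
Serpinh1, chr7:99353190-99353489, minus strand: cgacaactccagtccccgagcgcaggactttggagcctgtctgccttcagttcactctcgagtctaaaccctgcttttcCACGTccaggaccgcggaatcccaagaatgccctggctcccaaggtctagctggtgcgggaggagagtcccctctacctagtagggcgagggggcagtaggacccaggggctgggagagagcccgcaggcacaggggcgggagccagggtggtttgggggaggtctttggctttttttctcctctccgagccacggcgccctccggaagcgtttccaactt
Pcolce, chr5:137611355-137611654, minus strand: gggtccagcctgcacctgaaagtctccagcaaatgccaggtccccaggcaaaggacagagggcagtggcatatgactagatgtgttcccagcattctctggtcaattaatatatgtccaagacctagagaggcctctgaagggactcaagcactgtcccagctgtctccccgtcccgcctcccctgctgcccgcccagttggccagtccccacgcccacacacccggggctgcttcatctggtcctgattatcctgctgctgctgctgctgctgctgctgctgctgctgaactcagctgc
P4ha1, chr10:59323046-59323345, plus strand: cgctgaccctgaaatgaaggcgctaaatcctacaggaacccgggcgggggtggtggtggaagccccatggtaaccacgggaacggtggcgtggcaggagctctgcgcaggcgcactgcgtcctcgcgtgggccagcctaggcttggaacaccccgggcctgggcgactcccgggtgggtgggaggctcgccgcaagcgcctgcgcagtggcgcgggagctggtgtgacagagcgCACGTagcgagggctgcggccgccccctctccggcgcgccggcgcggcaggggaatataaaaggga
P4ha2, chr11:54100674-54100973, plus strand: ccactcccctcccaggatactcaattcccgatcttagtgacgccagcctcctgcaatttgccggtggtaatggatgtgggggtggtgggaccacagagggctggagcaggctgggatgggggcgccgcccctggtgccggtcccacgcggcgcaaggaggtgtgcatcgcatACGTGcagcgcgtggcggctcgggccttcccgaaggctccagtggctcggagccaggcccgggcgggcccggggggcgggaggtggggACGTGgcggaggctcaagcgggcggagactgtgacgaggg
ACGTG was found on either strand in 3 of the 5 windows (Serpinh1 at -171 to -167 from the start, P4ha1 at -16 to -12, P4ha2 at -78 to -74 and at 11 to 15) and not in those of Pcolce and Plod1, and 19.6% of 32851 promoter windows hold it. The GC box GGGCGG was in 5 of 5 windows and in 35.7% of all, and no match of ACGTG overlapped one. The core of the interferon-stimulated response element (GAAA, any 2 bases and GAAA) and the AP-1 letters TGANTCA were in 0 of 5 windows, and in 3.44% and 7.81% of all. The 5 windows were 59.3% to 70.3% G or C, where the mean of all windows was 53.8%. A match describes letters and is not a measured site, and a missing match says only that these letters are not in the window.

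Lox, which encodes the founding lysyl oxidase, was higher by 2 of its 3 probe sets. By its brightest probe set, 1416121_at, it read 11.19, 10.74 and 11.25 in SMC-IRF9-TG pools, against 8.84, 9.21 and 8.99 in NTG pools. All SMC-IRF9-TG pools lay at least 1 log2 unit above all NTG pools. This is 11.06 ± 0.28 against 9.02 ± 0.19 (SD, n = 3 pools each), a difference of 2.04 (standard error 0.22), or 4.12-fold, with an adjusted p of 0.00365 from limma. The probe set 1448228_at read 7.90, 8.10 and 8.16 in SMC-IRF9-TG pools, against 5.71, 5.83 and 5.62 in NTG pools (difference 2.33, standard error 0.19, 5.04-fold, adjusted p = 0.00102). Here the pools of each genotype lay within 0.3 of each other. Only 0.457% of all probe sets had a larger difference than this one. The third, 1437903_at, was dim, and read 3.04, 3.19 and 2.89 in SMC-IRF9-TG pools, against 1.99, 2.45 and 2.31 in NTG pools, and the 3 NTG levels lay under the lower quartile of their arrays. Its groups did not overlap either, but its difference of 0.79 did not pass (adjusted p = 0.0851). Both calls of Lox were kept in each of the 6 fits that left out 1 pool (differences of 1.95 to 2.20 and of 2.28 to 2.41).

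Among the relatives of Lox, Loxl3 was higher and Loxl1 was not called. Loxl3, a paralogue with the same catalytic domain, read 8.04, 8.34 and 8.15 in SMC-IRF9-TG pools, against 6.97, 6.54 and 6.63 in NTG pools by its single probe set, 1418269_at. The genotypes were more than 1 log2 unit apart, with a difference of 1.46 (standard error 0.20, 2.75-fold, adjusted p = 0.0104). The call was lost without SMC-IRF9-TG pool 2 (difference 1.38, adjusted p = 0.066) and without SMC-IRF9-TG pool 3 (1.48, adjusted p = 0.0532). Loxl1, which in mice is needed for elastic fibre upkeep, read 8.98, 9.17 and 10.21 in SMC-IRF9-TG pools, against 9.13, 7.74 and 8.35 in NTG pools by 1451978_at. SMC-IRF9-TG pool 3 stood above the others and NTG pool 1 reached into the SMC-IRF9-TG range. The difference of 1.05 (standard error 0.42) did not pass (adjusted p = 0.195), nor did it without either of these pools (0.67 and 1.41, adjusted p of 0.44 and 0.135). The dimmer 1436063_at read 5.79, 5.84 and 6.54 in SMC-IRF9-TG pools, against 6.68, 6.72 and 5.59 in NTG pools, a difference of -0.27 (95% interval -1.06 to 0.53, adjusted p = 0.648). The 2 probe sets of Loxl1 thus had opposite signs, also after centring each array (1.14 and -0.18) and after quantile normalization (0.77 and -0.53), but both were positive against NTG pool 3 alone (1.10 and 0.47) and for SMC-IRF9-TG pool 3 alone (1.80 and 0.21).

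**Figure D2:**
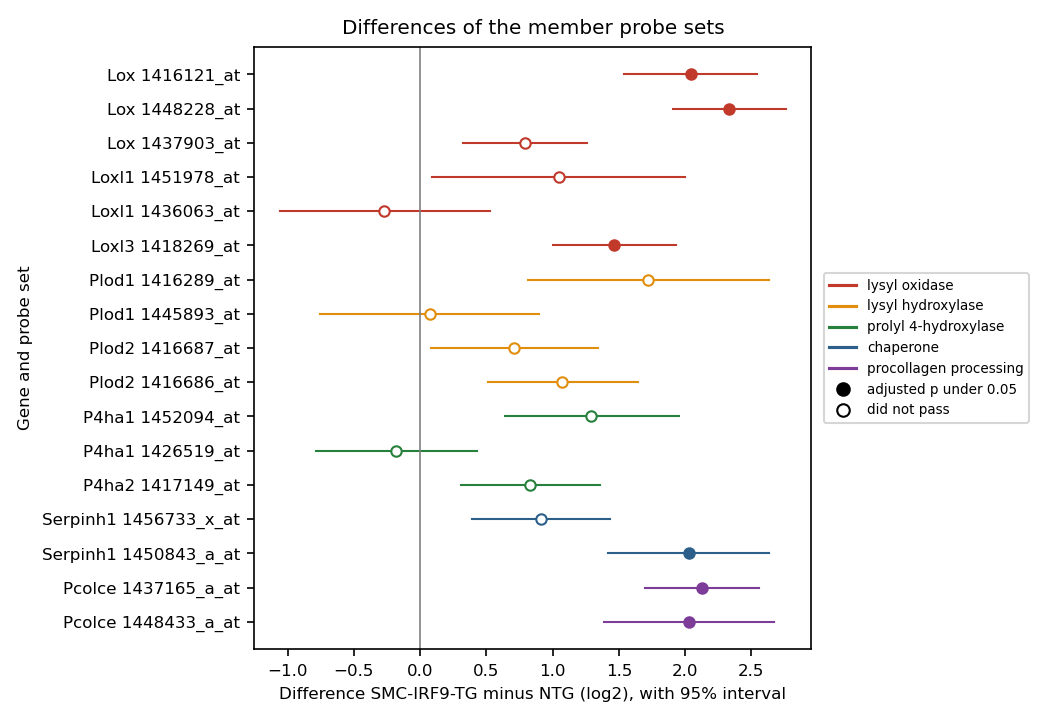
Difference SMC-IRF9-TG minus NTG (x axis, log2) of each member probe set (y axis), with its 95% interval from limma, 3 pools per genotype, coloured by the role of the protein and filled where the adjusted p was under 0.05. The 6 filled points lie between 1.46 and 2.33, and the points of Loxl1 1436063_at and P4ha1 1426519_at lie below 0.

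Pcolce, a secreted glycoprotein that enhances the removal of the procollagen C-propeptide, was higher by both of its probe sets. It read 9.80, 9.75 and 9.83 in SMC-IRF9-TG pools, against 7.82, 7.71 and 7.45 in NTG pools by 1437165_a_at. The SMC-IRF9-TG pools lay within 0.1 of each other. The difference was 2.13 (standard error 0.19, 4.38-fold, adjusted p = 0.00162), and it passed in each of the 6 fits without 1 pool (2.03 to 2.21). By 1448433_a_at, Pcolce read 8.30, 8.61 and 8.73 in SMC-IRF9-TG pools, against 6.73, 6.89 and 5.93 in NTG pools, with NTG pool 3 the lowest. That difference was 2.03 (standard error 0.28, adjusted p = 0.00997), and it did not pass without SMC-IRF9-TG pool 2 (adjusted p = 0.0599).

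Serpinh1, which encodes the collagen chaperone HSP47, was higher by 1 of its 2 probe sets. The brightest, 1456733_x_at, read 11.64, 10.96 and 11.44 in SMC-IRF9-TG pools, against 10.51, 10.52 and 10.27 in NTG pools, without overlap. Its difference of 0.91 (standard error 0.23, 1.88-fold) did not pass (adjusted p = 0.0779). Probe sets with the suffix _x_at hold probes that can also match other transcripts. By 1450843_a_at, Serpinh1 read 10.87, 10.69 and 10.89 in SMC-IRF9-TG pools, against 9.21, 8.23 and 8.94 in NTG pools. NTG pool 2, the pool with the largest loss of 5′ signal, was the lowest, and the difference of 2.03 (standard error 0.27, 4.07-fold, adjusted p = 0.00828) was 1.75 without it (adjusted p = 0.00888). The mean of both probe sets gave 1.47 (adjusted p = 0.013).

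The lysyl hydroxylases did not pass, although 3 of their 4 probe sets did not overlap between genotypes. Plod1, which encodes the enzyme that hydroxylates lysines of the helix, read 6.77, 6.58 and 6.78 in SMC-IRF9-TG pools, against 5.43, 3.96 and 5.59 in NTG pools by 1416289_at. NTG pool 2 lay more than 1 log2 unit under the other NTG pools. The difference of 1.72 (standard error 0.40) did not pass (adjusted p = 0.0635), and it passed without NTG pool 2 (1.20, adjusted p = 0.023) and without NTG pool 3 (2.02, adjusted p = 0.0474). The other Plod1 probe set, 1445893_at, was dim, with 2.72 to 3.14 in SMC-IRF9-TG pools and 2.30 to 3.78 in NTG pools (difference 0.07, adjusted p = 0.913). Plod2, the enzyme that hydroxylates telopeptide lysines and so sets the type of crosslink, read 7.72, 8.58 and 7.93 in SMC-IRF9-TG pools, against 7.02, 7.54 and 7.53 in NTG pools by 1416687_at. These ranges nearly touched (difference 0.71, standard error 0.28, adjusted p = 0.184). By 1416686_at, Plod2 read 7.63, 7.41 and 7.39 in SMC-IRF9-TG pools, against 5.94, 6.46 and 6.80 in NTG pools (difference 1.07, standard error 0.25, adjusted p = 0.0637). NTG pool 3 was the highest NTG pool, and without it the difference was 1.27 and passed (adjusted p = 0.0359).

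The prolyl 4-hydroxylase subunits had the same sign and did not pass. P4ha1, a catalytic α subunit, read 8.16, 7.34 and 7.13 in SMC-IRF9-TG pools, against 6.05, 6.43 and 6.26 in NTG pools by 1452094_at, with SMC-IRF9-TG pool 1 well above the rest. The difference was 1.29 (standard error 0.29, 2.45-fold, 95% interval 0.64 to 1.95) with an adjusted p of 0.0552. P4ha2, the second α subunit, read 7.65, 7.48 and 6.94 in SMC-IRF9-TG pools, against 6.48, 6.42 and 6.65 in NTG pools (difference 0.83, standard error 0.23, adjusted p = 0.0995). For both genes the lowest SMC-IRF9-TG pool was pool 3 and still lay above each NTG pool. The other probe set of P4ha1, 1426519_at, read 2.18 to 2.39 in SMC-IRF9-TG pools and 2.04 to 3.02 in NTG pools, around the lower quartile of the arrays (difference -0.18, adjusted p = 0.694).

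Whether related genes, or probe sets of 1 gene, differed in the size of their difference was asked within each array in 12 pairs. The level of one probe set minus that of another was compared between genotypes by an exact 2-sided permutation test, whose smallest p with 3 pools against 3 is 0.1, so that no pair could pass. Lox minus Loxl1 was 2.21, 1.56 and 1.04 in SMC-IRF9-TG pools, against -0.29, 1.47 and 0.65 in NTG pools (95% interval of the change -0.70 to 2.69, exact p = 0.2). P4ha1 minus P4ha2 was 0.52, -0.14 and 0.19 in SMC-IRF9-TG pools, against -0.43, 0.01 and -0.39 in NTG pools (change 0.46, 95% interval -0.20 to 1.11, exact p = 0.2). The change was 0.58 for Lox minus Loxl3 (95% interval -0.36 to 1.52, exact p = 0.2) and -1.01 for Plod2 minus Plod1 (-2.93 to 0.92, exact p = 0.3). Without NTG pool 2, the pool with the largest loss of 5′ signal, the change of Plod2 minus Plod1 was -0.40. In these 4 pairs of related genes the genotypes overlapped, and each interval held 0. In 5 of the 8 pairs of probe sets of 1 gene they did not overlap, for Lox with 1437903_at, Loxl1, Plod1, P4ha1 and Serpinh1 (exact p = 0.1 each, 0.24 after adjustment over the 12 pairs). The share of such pairs without overlap over the whole array was not measured, so this count has no baseline. The 95% intervals of these changes, not adjusted for the number of pairs, were 0.56 to 1.94 for Lox, -0.22 to 2.85 for Loxl1, 0.12 to 3.17 for Plod1, 0.36 to 2.59 for P4ha1 and -2.10 to -0.13 for Serpinh1. The second probe sets of the Lox, Plod1 and P4ha1 pairs had 3, 1 and 4 arrays under the lower quartile, where the size of a change is not known, so those pairs do not show that probe sets of 1 gene differ in size of change. For Serpinh1, 1456733_x_at minus 1450843_a_at was 0.77, 0.27 and 0.55 in SMC-IRF9-TG pools, against 1.30, 2.29 and 1.33 in NTG pools. Without NTG pool 2 the change was -0.79 for Serpinh1 (-1.11 with all pools) and 0.79 for Loxl1 (1.31 with all pools). For the 2 probe sets of Pcolce the change was 0.10 (95% interval -0.56 to 0.76, exact p = 0.7).

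**Figure D3:**
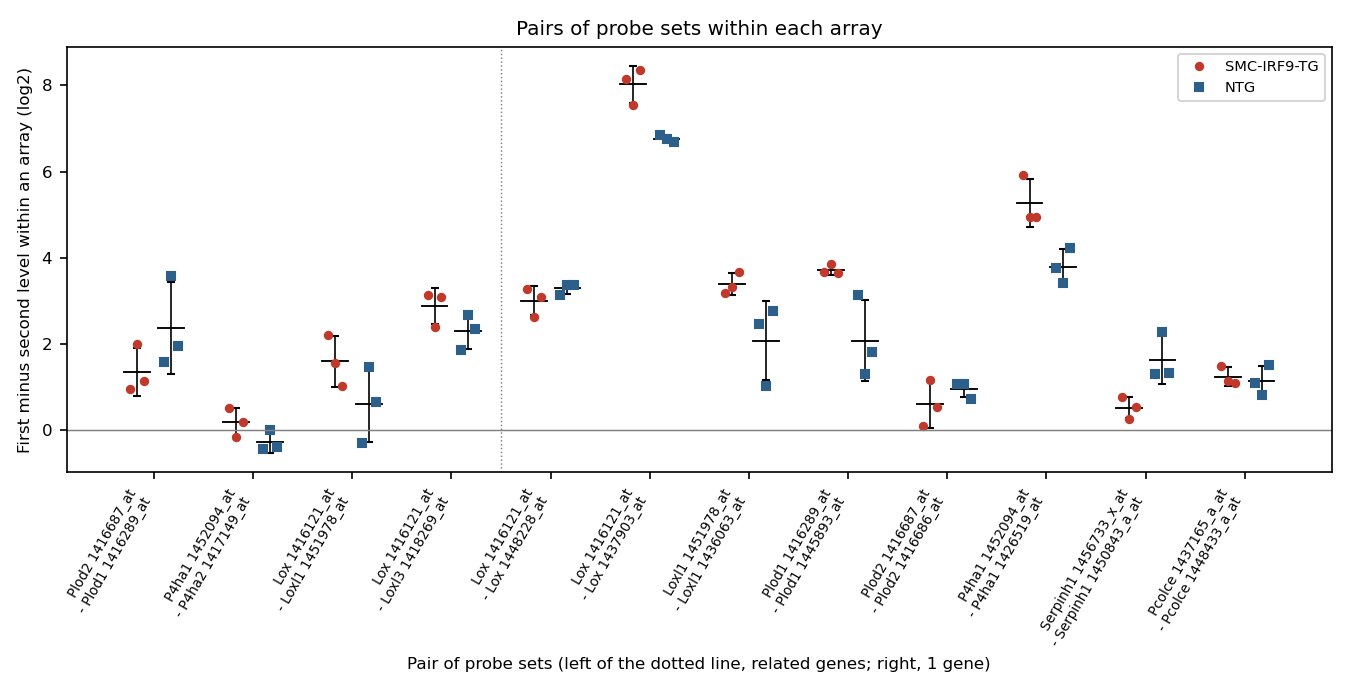
Level of the first minus the second probe set of a pair within each array (y axis, log2) for 4 pairs of related genes and 8 pairs of probe sets of 1 gene (x axis), in 3 SMC-IRF9-TG pools (circles, left) and 3 NTG pools (squares, right), with mean ± SD. Circles and squares overlap in the 4 pairs of related genes and are apart in 5 of the 8 pairs of 1 gene.

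Among the partners of these enzymes Bmp1, Fkbp14 and Crtap were higher, and limma called none lower. Of 23 further genes of collagen processing 20 were measured, of which 3 were higher, 0 were lower (2, Tll2 and Tgm2, at an unadjusted p under 0.05) and 17 did not pass, with 15 positive and 5 negative differences and a median of 0.61 (-0.05 over all genes). In 10 of the 20 each SMC-IRF9-TG pool exceeded each NTG pool, against 16.1% of all genes. Bmp1, the procollagen C-proteinase that Pcolce enhances, read 7.65 ± 0.44 in SMC-IRF9-TG and 5.79 ± 0.48 in NTG pools (SD, n = 3 pools each; difference 1.85, adjusted p = 0.0209). Its dim probe sets 1427458_at and 1427457_a_at differed by -0.21 and 0.58 (adjusted p of 0.646 and 0.237). Fkbp14, a prolyl isomerase of the endoplasmic reticulum, rose by 1.19 (adjusted p = 0.0197), and by the dim 1458225_at it differed by -0.10 (adjusted p = 0.748). Crtap, a subunit of the prolyl 3-hydroxylase complex, rose by 1.08 (adjusted p = 0.0468). These calls depended on the pools: 0 of the 20 passed without any one of the SMC-IRF9-TG pools, Bmp1 alone passed without NTG pool 1, and Bmp1 and Fkbp14 passed without NTG pool 2 or without NTG pool 3. Under each of the blocks for high Xist and for low poly-A controls, 0 of the 20 passed.

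Of the partners that share a family with the members, Plod3 differed by 1.18 (adjusted p = 0.118), P4ha3 by 1.23 (adjusted p = 0.0913) and Loxl4 by 0.16 (adjusted p = 0.653). P4ha3 and Loxl4 were dim, and P4ha3 had 1 array under the lower quartile, where the size of a change is not known. P4hb, the β subunit that P4ha1 and P4ha2 bind, read 10.25, 10.64 and 10.79 in SMC-IRF9-TG pools, against 9.74, 7.38 and 9.35 in NTG pools. NTG pool 2 was again the lowest, and the difference of 1.74 did not pass (adjusted p = 0.126). Pcolce2, the paralogue of Pcolce, overlapped between genotypes (difference 0.18, adjusted p = 0.818). The prolyl 3-hydroxylase genes P3h1 and P3h3 differed by 0.98 and 1.46 (adjusted p of 0.0652 and 0.0637), and P3h2 by -0.10 (adjusted p = 0.799). The other probe set of P3h1, 1421462_a_at, overlapped between genotypes (difference 0.60, adjusted p = 0.343). Ppib, the isomerase of that complex, read 10.67 ± 0.13 in SMC-IRF9-TG and 10.68 ± 0.23 in NTG pools by its brightest probe set, 1437649_x_at (difference -0.01, adjusted p = 0.985). By another, 1450911_at, the difference was 0.87 (adjusted p = 0.0852), and each SMC-IRF9-TG pool lay above each NTG pool. Tgm2, a transglutaminase that crosslinks matrix through glutamine and lysine, had a negative difference. It read 10.28, 10.18 and 10.15 in SMC-IRF9-TG pools, against 11.06, 10.84 and 10.60 in NTG pools by its brightest probe set (difference -0.63, adjusted p = 0.127), without overlap and without passing. Of its 6 probe sets, 4 lay below without overlap, the brightest among them. All 4 carry the suffix _x_at, so their probes can also match other transcripts. By 1417500_a_at and 1426004_a_at, which lack that suffix, the genotypes overlapped (differences of -0.07 and 0.19). Among the 4, 1438942_x_at was dim, at 2.53 to 2.59 against 2.78 to 2.87 (difference -0.26, adjusted p = 0.384). By brightest probe set, 16.1% of all genes lay below without overlap.

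Most of the substrates of these enzymes were higher on the same arrays. Of 7 genes of fibrillar collagens and elastin, 6 were higher (4 or 5 were called without 1 pool, and 1 under each of the blocks named above) and Col11a1 did not pass, with a median difference of 1.91, beside 1.29 for the 9 members. Col1a1, a chain of type I collagen, read 8.99, 9.03 and 9.95 in SMC-IRF9-TG pools, against 6.08, 6.72 and 6.09 in NTG pools by 1423669_at (difference 3.03, adjusted p = 0.00305) and differed by 2.48 by its brightest probe set (adjusted p = 0.00582). Col5a2 rose by 2.29 (adjusted p = 0.00242), Eln by 1.91 (adjusted p = 0.0357, not called in any fit without 1 pool) and Col3a1 by 1.71 (adjusted p = 0.00401). Col11a1, a minor fibrillar chain, read 6.28, 8.40 and 3.04 in SMC-IRF9-TG pools, against 3.15, 2.93 and 2.58 in NTG pools, with a spread over the SMC-IRF9-TG pools larger than its difference of 3.02 (adjusted p = 0.165). Without SMC-IRF9-TG pool 3, the lowest of these, Col11a1 was among the 5 genes called. Whether the members and the substrates differ in size of change was not tested.

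**Figure D4:**
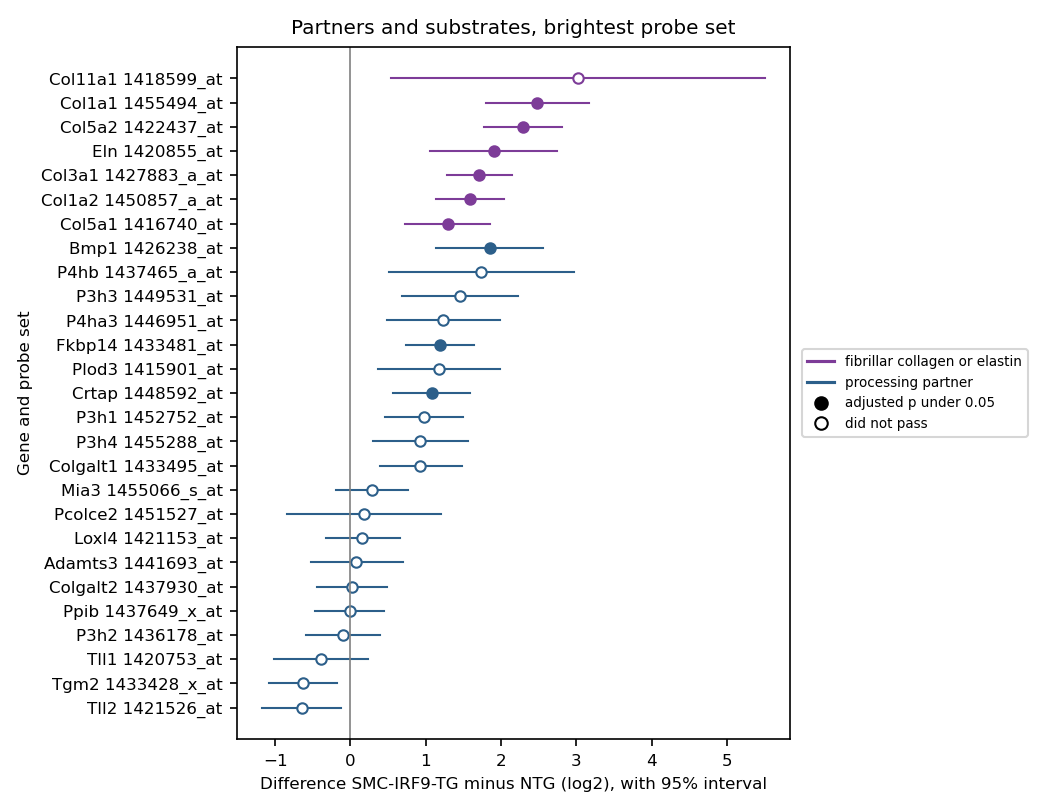
Difference SMC-IRF9-TG minus NTG (x axis, log2) of the brightest probe set of 7 fibrillar collagen and elastin genes and of 20 collagen processing partners (y axis), with 95% intervals from limma, 3 pools per genotype, filled where the adjusted p was under 0.05. Filled points are 6 of the substrates and Bmp1, Fkbp14 and Crtap, and Tll2 and Tgm2 lie lowest.

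How the members stood against single NTG pools was also measured. Against NTG pool 3 alone, the NTG pool whose Xist level was near those of the SMC-IRF9-TG pools, the brightest probe sets of Lox, Loxl3 and Pcolce differed by 2.06, 1.54 and 2.34. Of the 17 member probe sets, 16 had a positive difference there, and Plod1 1445893_at had one of -0.80. The share of all probe sets that were positive there was not measured, so this count has no baseline. With all pools, 17474 of 45037 probe sets were positive. For SMC-IRF9-TG pool 3 alone, whose poly-A controls were near those of the NTG pools, the differences of the same 3 genes were 2.23, 1.43 and 2.17. Each such value rests on 1 pool.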

How the data were processed

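RNA of 6 pools of injured carotid arteries (3 SMC-IRF9-TG, 3 NTG) was measured on 1 Affymetrix array each. The authors deposited log2 values, made by RMA (background correction, quantile normalization, probe summary) with Expression Console per the submitters' processing notes. The version of that software is not given in the sources used here. Array medians ran from 3.42 to 3.66. Scanner files were not used, so detection per probe set is unknown, and the number of arrays limits the precision. Of 45101 probe sets, 64 controls were left out. In the annotation 34945 probe sets had 1 symbol, 932 had more than 1 and 9160 had no symbol.

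Genotypes were compared with limma 3.58.1 (lmFit, eBayes, 2-sided) in R 4.3.3, with Benjamini-Hochberg adjustment over 45037 probe sets and a threshold of 0.05. The methods name a t-test for the whole paper and none for the arrays. No filter was applied. A gene is taken by its probe set of highest mean, and intervals are 95% intervals of the fit, or from the pooled spread of the pools for pairs. Single values and pairs were compared by exact permutation. Python 3.11.15 with scipy 1.17.1 was used, and the fit was tested on simulated data. Promoter letters are from RefSeq.

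The members, all lists and alternatives were chosen with earlier results of these data known. All members are named, and from other lists up to 4 genes that passed, taken by size of difference, or the 2 brightest where none passed, and any of the processing partners. Col11a1, the substrate that did not pass, the second probe set of Col1a1 and Vwf fall outside this rule and were chosen after their values were seen. The hypoxia-responsive, macrophage, fibroblast, contractile and endothelial lists hold 12, 15, 10, 10 and 10 genes. Alternatives were centring, quantile normalization, a filter on dim probe sets, a trended and robust prior, the methods' t-test, array weights, a block for replicate number, blocks for arrays with high Xist or low poly-A controls, each array left out, the mean over probe sets and other thresholds. Leave-one-out counts for the other lists were added after seeing the data.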

Additional observations from a re-analysis of the deposited data

How the results depend on the processing

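Of the 17 member probe sets 6 were called, and of the 9 genes 3 were called. Leaving out 1 pool at a time gave 4 to 8 probe sets and 2 to 4 genes. Centring each array on its median, which moved the median difference of all probe sets to -0.03 from -0.13, and leaving out dim probe sets each called 5 genes, with Plod1 (adjusted p of 0.0399 and 0.0385) and P4ha1 (0.0391 and 0.0382) added. Quantile normalization went the other way for these 2 genes, with 6 probe sets and 3 genes called. Its adjusted p from limma was 0.138 for Plod1 and 0.149 for P4ha1, against 0.0635 and 0.0552 in the main fit. It called 700 probe sets of the whole array, against 1237 in the main fit. A threshold of 0.1 gave 12 probe sets and 7 genes. The methods' t-test called 0 probe sets and 0 genes after adjustment (12 and 7 at an unadjusted p under 0.05), and it called 1 probe set of the whole array. The block for arrays with high Xist gave 3 probe sets and 1 gene, and that for low poly-A controls 1 probe set and 0 genes (adjusted p of 0.079, 0.284 and 0.0731 for Lox, Loxl3 and Pcolce). Each block leaves 1 genotype with 1 pool in the comparison. In no alternative did the brightest probe set of a measured member change sign, with differences of 1.83 to 2.23 for Lox, 1.17 to 1.59 for Loxl3 and 1.86 to 2.34 for Pcolce. The mean over the probe sets of Lox differed by 1.72. Pairs of probe sets without overlap between genotypes numbered 5 of 12, and 6 to 9 without 1 pool. This count cannot fall when a pool is left out, so it does not show how stable the pairs are. Over the whole array 1237 probe sets were called, and 55 to 1851 in the other limma fits.

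With the replicate number as a block, 6 probe sets and 3 genes were called. Same-numbered pools did not deviate together (correlations of -0.15, 0 and 0.03 over probe sets), so the numbers only name the pools. Depth in the sense of counts has no meaning here, and 3 member probe sets had at least 1 array under its lower quartile, where the size of a change is not known.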

Other observations

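Plod2, P4ha1, P4ha2 and Lox are known as genes that hypoxia-inducible factors can raise, so 12 other hypoxia-responsive genes were listed beside them. Of these, 0 were called by limma (4 at an unadjusted p under 0.05) and 0 by the methods' t-test (5 unadjusted), with 7 positive and 5 negative differences and a median of 0.05 (0.02 to 0.34 without 1 pool or with a block). Pgk1, a glycolytic kinase, differed by 0.77 (adjusted p = 0.137) and Ldha, lactate dehydrogenase, by 0.64 (adjusted p = 0.143). For both genes the ranges of the genotypes did not overlap by brightest probe set. Of the other Pgk1 probe sets, 1438640_x_at did not overlap (difference 0.46) and 1439435_x_at did (0.06). The glucose transporter gene Slc2a1 differed by -0.85 (adjusted p = 0.0942) and Adm, the vasodilator adrenomedullin, by -1.52 (adjusted p = 0.0659), with all SMC-IRF9-TG pools below all NTG pools. By brightest probe set, 2 of the 12 genes lay above and 3 below without overlap, against 16.1% of all genes in each direction. Bnip3 read 7.04 ± 0.33 in SMC-IRF9-TG and 7.05 ± 0.10 in NTG pools (SD, n = 3 pools each). Slc2a1, Adm and Bnip3 were chosen after their values were seen.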
